A study of Mus musculus with 24 samples.

Results

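Serpin protease inhibitors were measured in liver and whole colon of the same mice on arrays carrying 60-base probes for the mouse transcriptome. The members were all non-control probes whose gene name begins with Serpin, which gave 73 of the 41174 probes on the array and 54 of its 27962 gene name entries. The brightest probe, by mean intensity over all arrays, stood for each gene. By the clade letter that follows the word Serpin in the symbol, 20 genes belonged to clade A, 24 to clade B and 10 to clades C to I. RefSeq lists 69 mouse Serpin genes. All 54 members matched one of them by symbol, and 15, Serpina1a and Serpina1c among them, had no probe under their own name.

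The 12 mice were female C57BL/6 offspring, 6 on each diet. The mothers of both groups ate a fat-rich diet poor in both selenium and folate (HF-Low) from before mating to the end of lactation, so no group in this design had an adequate maternal diet. At weaning, at 28 days, the offspring either stayed on that diet (HF-low-low) or moved to a fat-rich one that met the need for selenium and for folate (HF-low-suf). Tissues were taken when the mice were 12 weeks old. Each mouse gave 1 liver and 1 colon array, which made 24 arrays in 4 groups of 6. Every array carried the mouse's RNA in Cy3 and, in Cy5, a reference pooled in equal parts from colon and liver RNA of all mice, with no dye swap, so each value below is a log2 ratio of Cy3 over Cy5.

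Serpins share a fold with an exposed reactive centre loop that a target protease cuts. The cut springs the loop into the body of the inhibitor and carries the trapped protease with it, so each molecule works once. Clade A holds many plasma proteins made by hepatocytes, clade B holds mostly intracellular inhibitors of epithelial cells and leukocytes, and the smaller clades include the main inhibitors of clotting, fibrinolysis and complement. Some members inhibit nothing: Serpina6 and Serpina7 carry corticosteroids and thyroxine in blood, and Serpinh1 is a chaperone for collagen in the endoplasmic reticulum.

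Probes of different clades could still resemble each other. The sequences of 2 probes, from clades B and A, were picked after the sequences were seen, as an example of matching bases in members whose tissue differences ran in opposite directions. The probes of Serpinb1b (chr13:32456903-32456962, plus strand) and Serpina1b (chr12:101224607-101226106, minus strand) are placed in build mm7 as the array files give it, and the second runs across an intron. Capitals mark the bases that were identical when one probe was laid over the other without gaps.
Serpinb1b: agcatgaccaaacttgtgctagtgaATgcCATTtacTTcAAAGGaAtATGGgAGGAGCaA
Serpina1b: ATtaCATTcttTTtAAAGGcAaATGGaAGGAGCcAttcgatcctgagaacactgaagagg
The probes matched at 25 of 35 overlapping bases. Over 2609 pairs of probes of different Serpin genes, the closest were those of Serpinb9d and Serpinb9g, identical at 44 of 59 bases. Cross-hybridisation between close paralogs, above all within the Serpina1, Serpina3, Serpinb1, Serpinb6 and Serpinb9 groups, could not be measured on these arrays.

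The labelled tissues carried their own markers. All 8 hepatocyte markers were higher in liver (median log2 difference 5.33) and all 9 colon epithelium markers were higher in colon (median −4.50). Even so, 7 of the hepatocyte markers were well above background on all 12 colon arrays, and 6 of the colon epithelium markers on all 12 liver arrays. In the liver 18 Serpin genes were well above background in Cy3 on all 12 arrays and in the colon 21 were, while the main probes of 13 genes, 3 of clade A and 10 of clade B, were well above background on no array. The colon array of HF-low-suf replicate 5 and the liver array of HF-low-suf replicate 4 had a brighter Cy5 channel, at 18.2 and 12.7 times background against 5.43 to 7.62 on the others. On that liver array 8.53% of probes had no value after outlier spots were dropped, against at most 0.423% on any other array. The livers of HF-low-suf replicates 1 and 2 held the most adipose and skeletal muscle transcript, respectively. These are whole tissues, in which fewer cells of a type and less RNA per cell cannot be told apart.

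Most Serpin genes of clade A were higher in liver, while clade B was mixed. Of the 54 genes, 28 were higher in liver and 8 in colon at an adjusted P below 0.05 (limma over all probes, with mouse as a random block), and 18 passed in neither direction. Over all probes the same test called 19.4% higher in liver and 19.0% higher in colon. Clade A had 17 of 20 genes higher in liver and none higher in colon, with a median log2 difference of 3.14 against 0.02 for all probes. Clade B had 6 of 24 genes higher in colon, 4 higher in liver and 14 not called, with a median of −0.07. Of the 10 genes in clades C to I, 7 were higher in liver and 2 in colon, with a median of 1.61. The values of liver and colon did not overlap for 24 of the 54 genes, 11 of them in clade A, 6 in clade B and 7 in clades C to I, against 12.5% of all probes.

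Signal strength separated the calls. Of the 28 genes higher in liver, 19 were well above background on at least 6 of the liver arrays. The other 9, among them Serpina12, Serpina1f, Serpina3a, Serpina3f, Serpinb3c, Serpinb8, Serpinb9 and Serpini2, were mostly dim, and their differences ran only from 0.35 to 0.97 on the log2 scale. All 8 genes higher in colon cleared background in every colon. The main probes of Serpina3a and Serpina3f were dim on all 24 arrays, so their calls carry no fold.

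**Figure D1:**
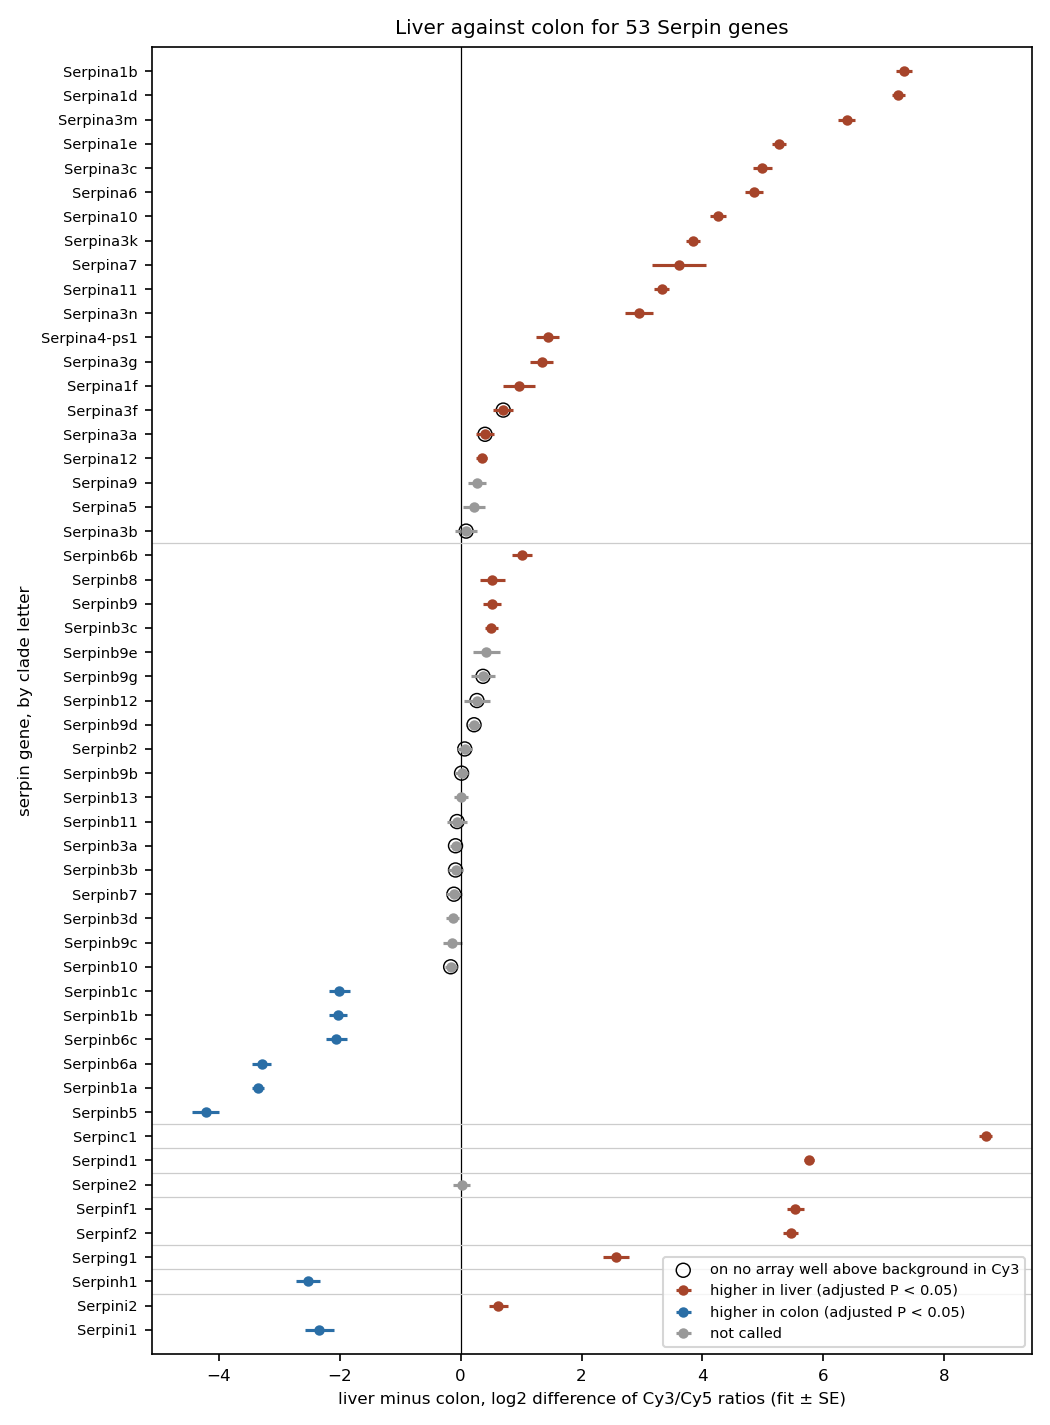
Liver minus colon log2 difference (x axis, fitted value ± SE, n = 12 mice) for 53 of the 54 Serpin genes, grouped by clade letter from A at the top to I at the bottom. Clade A lay to the right of 0 throughout, clade B fell on both sides with its 6 called colon genes between −4.22 and −2.01, and open rings mark the 13 genes whose main probe was well above background on no array.

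Antithrombin, Serpinc1, which inactivates thrombin and factor Xa, had the largest difference in the family. Its colon values ran from −6.65 through a median of −6.30 to −5.45, and its liver values from 2.11 through 2.43 to 2.65. The tissues were far apart in every mouse. The fitted difference was 8.68 ± 0.11 (SE, n = 12 mice), or 411-fold, with an adjusted P of 1.60e-28. A second, dimmer Serpinc1 probe gave 5.98 ± 0.13, so the direction did not depend on the probe but the size did.

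Heparin cofactor II, Serpind1, also inactivates thrombin. It ranged from −4.05 to −3.53 in colon (median −3.87) and from 1.66 to 2.18 in liver (median 1.97), a difference of 5.76 ± 0.08 or 54.1-fold. Its spread between mice was small in both tissues. Serpina10, the inhibitor of factor Xa that acts with protein Z, cleared background with its brightest probe in all 12 livers and in no colon. The mean of its liver values, which ran from 1.57 to 2.57, was at least 12.9-fold above colon by this probe after loess. Median centring in place of loess gave a fitted difference below that bound. That bound is set by the dimmest signal well above background after scaling each dye separately, and such bounds can carry dye bias because dyes were not swapped. A second Serpina10 probe, which cleared background in 2 colons, gave a difference of 2.09 ± 0.17.

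The neighbours Serpinf1 and Serpinf2 on chromosome 11 were both liver genes here. Serpinf2 encodes alpha-2-antiplasmin, the main inhibitor of plasmin, and Serpinf1 encodes pigment epithelium-derived factor, which does not inhibit proteases. Serpinf1 values were −3.80 to −2.20 in colon (median −3.05) and 2.16 to 2.75 in liver (median 2.36), which gave 5.53 ± 0.14 or 46.3-fold. Its second probe gave 3.79 on the same scale. Serpinf2 values were −4.48 to −3.76 in colon (median −4.18) and 0.24 to 1.71 in liver (median 1.41), a difference of 5.46 ± 0.12. The tissues did not overlap for either gene. Serping1, the C1 inhibitor of the complement and contact systems, differed less, by 2.57 ± 0.21, with liver values from 0.00 to 1.70 and colon values from −2.41 to −0.41.

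The alpha-1-antitrypsin paralogs Serpina1b, Serpina1d and Serpina1e were each far higher in liver. Serpina1b ran from −6.12 to −5.20 in colon (median −5.70) and from 1.03 to 2.16 in liver (median 1.81), a difference of 7.34 ± 0.13 or 162-fold. Serpina1d ran from −6.16 to −5.20 in colon (median −5.46) and from 1.38 to 2.12 in liver (median 1.70), a difference of 7.24 ± 0.10. The Cy5 reference of Serpina1d was saturated on 7 arrays, and Cy3 alone gave 5.60. Serpina1e ran from −4.09 to −3.64 in colon (median −3.86) and from 0.71 to 1.96 in liver (median 1.56), a difference of 5.27 ± 0.12 or 38.6-fold. Serpina1f, next to them on chromosome 12, was well above background on 1 liver array and on no colon array, and its fitted difference of 0.97 ± 0.27 came from dim values with overlapping tissues.

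The promoters of these 3 paralogs are shown because the genes are paralogs from one cluster on chromosome 12 and each was far higher in liver. Each run holds the 250 bases before the RefSeq start site in build GRCm38.p6, read on the minus strand, at chr12:103738190-103738439 for Serpina1b, chr12:103773634-103773883 for Serpina1d and chr12:103956898-103957147 for Serpina1e. Capitals mark every match, on either strand, to GTTAAT, part of the site of the hepatocyte factor HNF1, and to TTGCNNAA, a core of the C/EBP family. The 2 kinds of match did not overlap.
Serpina1b: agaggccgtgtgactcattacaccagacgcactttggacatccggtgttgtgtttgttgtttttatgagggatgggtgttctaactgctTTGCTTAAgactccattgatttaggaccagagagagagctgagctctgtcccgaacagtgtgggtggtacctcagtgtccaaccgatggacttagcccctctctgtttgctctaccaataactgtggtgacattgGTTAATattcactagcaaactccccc
Serpina1d: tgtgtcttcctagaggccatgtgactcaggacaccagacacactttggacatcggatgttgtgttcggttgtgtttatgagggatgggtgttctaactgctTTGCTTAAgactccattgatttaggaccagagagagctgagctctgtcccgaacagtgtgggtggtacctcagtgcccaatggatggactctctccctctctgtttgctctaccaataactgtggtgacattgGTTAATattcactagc
Serpina1e: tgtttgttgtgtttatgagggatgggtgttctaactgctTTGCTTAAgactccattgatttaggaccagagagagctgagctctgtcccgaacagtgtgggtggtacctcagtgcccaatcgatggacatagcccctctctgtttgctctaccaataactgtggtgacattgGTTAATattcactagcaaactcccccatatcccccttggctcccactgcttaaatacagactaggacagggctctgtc
The first base of the GTTAAT match stood at −26 in Serpina1b, −16 in Serpina1d and −78 in Serpina1e, and that of the TTGCNNAA match at −161, −149 and −211. The longest run common to all 3 promoters was 64 bases and held the TTGCNNAA match. Of the 54 genes, 44 had a promoter window. GTTAAT occurred in 7 of 21 genes higher in liver, 0 of 7 higher in colon and 2 of 16 not called, against 6.52% of 27025 promoters, one a gene. TTGCNNAA occurred in 7, 0 and 5 of the same groups, against 9.55%. Serpina1b, Serpina1d and Serpina1e make up 3 of the 7 liver genes in both counts. Pairs of their windows shared runs of 64 to 115 bases, so these are not independent promoters. The HNF4 letters CAAAGTCCA occurred in none of the 44. TTCNNNGAA, a STAT core, occurred in 4, 1 and 1 (7.18% of all promoters), the heat shock element pair GAANNTTC in 1, 1 and 1 (6.78%), and TATAAA in 6, 0 and 7 (12.97%). A match describes letters in the window and says nothing of whether a factor binds there.

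The Serpina3 group, which in the mouse has grown from one ancestor into many paralogs, was uneven. Serpina3m reached 6.38 ± 0.14 (83.5-fold), with colon values from −5.30 to −4.83 (median −4.90) and liver values from 0.62 to 2.20 (median 1.41). Serpina3c followed at 4.99 ± 0.15 and Serpina3n, an acute phase protein, at 2.96 ± 0.23, both without overlap. Serpina3k gave 3.84 ± 0.12 from its brightest probe but 7.08 ± 0.17 from its second, a gap of 3.24, and was without overlap on the first. Serpina3g, an intracellular member induced in leukocytes, gave 1.34 ± 0.18 with overlapping tissues, and Serpina3b gave 0.09 ± 0.18 without passing the test.

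Both hormone carriers were higher in liver. Serpina6, corticosteroid-binding globulin, gave 4.86 ± 0.15, from −3.49 to −2.30 in colon and 1.39 to 2.85 in liver. Serpina7, thyroxine-binding globulin, the only clade A member here on chromosome X, was dim on all 12 colon arrays and at least 4.45-fold higher in liver. Serpina11 gave 3.32 ± 0.12 and Serpina4-ps1 1.44 ± 0.19. The remaining clade A genes Serpina5 and Serpina9 gave 0.22 ± 0.18 and 0.27 ± 0.15 and were not called.

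**Figure D2:**
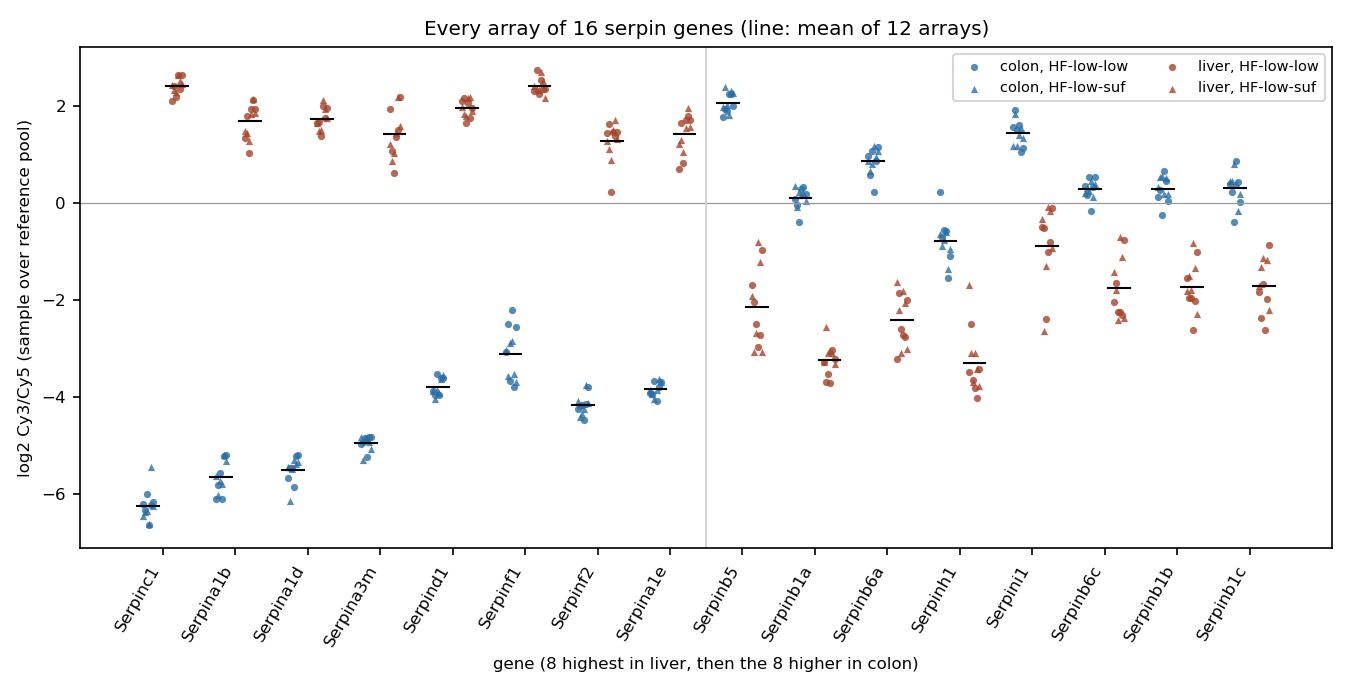
Log2 Cy3/Cy5 (y axis) on every array for the 8 Serpin genes with the largest rise in liver and the 8 higher in colon (x axis), with circles for HF-low-low, triangles for HF-low-suf, blue for colon, red for liver and a line at the mean of 12 arrays. The tissues did not overlap for any of the 16 genes, whereas circles and triangles of one tissue were intermixed.

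Serpinb5, or maspin, an epithelial serpin that does not inhibit proteases, was higher in colon. Its probe cleared background in all 12 colons, at 1.78 to 2.39 (median 2.01), and in no liver, so the liver side is known only as dim. The fitted difference of −4.22 (limma, adjusted P = 6.91e-15) is therefore no measured size, and Feature Extraction's own processed signals gave −6.08. No bound is given, because the one computed from the Cy3 channel was larger than the fitted fold. Maspin is also abundant in squamous epithelium, whose markers gave 1 gene of 8 higher in liver, 2 higher in colon and 5 not called. Of these 8 markers, Krt13 cleared background in all 12 colons, 5 in 1 to 9 colons, and Trp63 and Sprr3 in none. Their part in the Serpinb5 values was not tested.

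The Serpinb1 and Serpinb6 paralogs, cytosolic inhibitors of granule proteases, made up the rest of clade B in colon. Serpinb1a ran from −0.39 to 0.34 in colon (median 0.17) and from −3.72 to −2.56 in liver (median −3.25), a difference of −3.35 ± 0.10, or 10.2-fold higher in colon. Serpinb6a ran from 0.23 to 1.18 in colon (median 0.91) and from −3.22 to −1.62 in liver (median −2.40), a difference of −3.29 ± 0.16 (9.76-fold). The tissues did not overlap for either. Serpinb6c gave −2.05 ± 0.17 (colon median 0.32, liver median −1.92), Serpinb1b gave −2.03 ± 0.15 (0.30 and −1.81) and Serpinb1c gave −2.01 ± 0.17 (0.40 and −1.71), about 4-fold higher in colon in each case, though Feature Extraction's own processed signals gave −3.37, −2.99 and −2.98. The tissues did not overlap for these either. In Serpinb1c, 1 liver spot (HF-low-suf replicate 4) was left out as an outlier. In liver these last 3 cleared background on only 4, 5 and 6 arrays, respectively. The second probes of Serpinb1b (0.04 ± 0.10) and Serpinb6a (−0.05 ± 0.08) were dim on all 24 arrays and showed no such difference.

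Serpinb6b was the only clade B gene higher in liver detected in most livers (10 of 12), at 1.02 ± 0.17 with overlapping tissues. Serpinb8, Serpinb9 and Serpinb3c gave 0.53 ± 0.20, 0.52 ± 0.15 and 0.51 ± 0.10 from dim probes, and the count of 4 fell to 1 or 2 under several settings given in the closing paragraphs. The 14 uncalled clade B genes ran from Serpinb10 at −0.16 ± 0.10 to Serpinb9e at 0.43 ± 0.23.

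The 24 clade B genes lie in 2 clusters of 12, on chromosomes 1 and 13. On chromosome 13, which holds the Serpinb1, Serpinb6 and Serpinb9 paralogs, 5 genes were higher in colon, 2 in liver and 5 were not called. On chromosome 1, Serpinb5 at one end was the only gene higher in colon, 2 were higher in liver and 9 were not called. Of those 9, 7 had a main probe that was dim on all 24 arrays, and the difference between the clusters was not tested. In the clade A cluster of 19 genes on chromosome 12, 16 were higher in liver and 3 were not called, and the uncalled Serpina9, Serpina5 and Serpina3b lay in its middle.

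**Figure D3:**
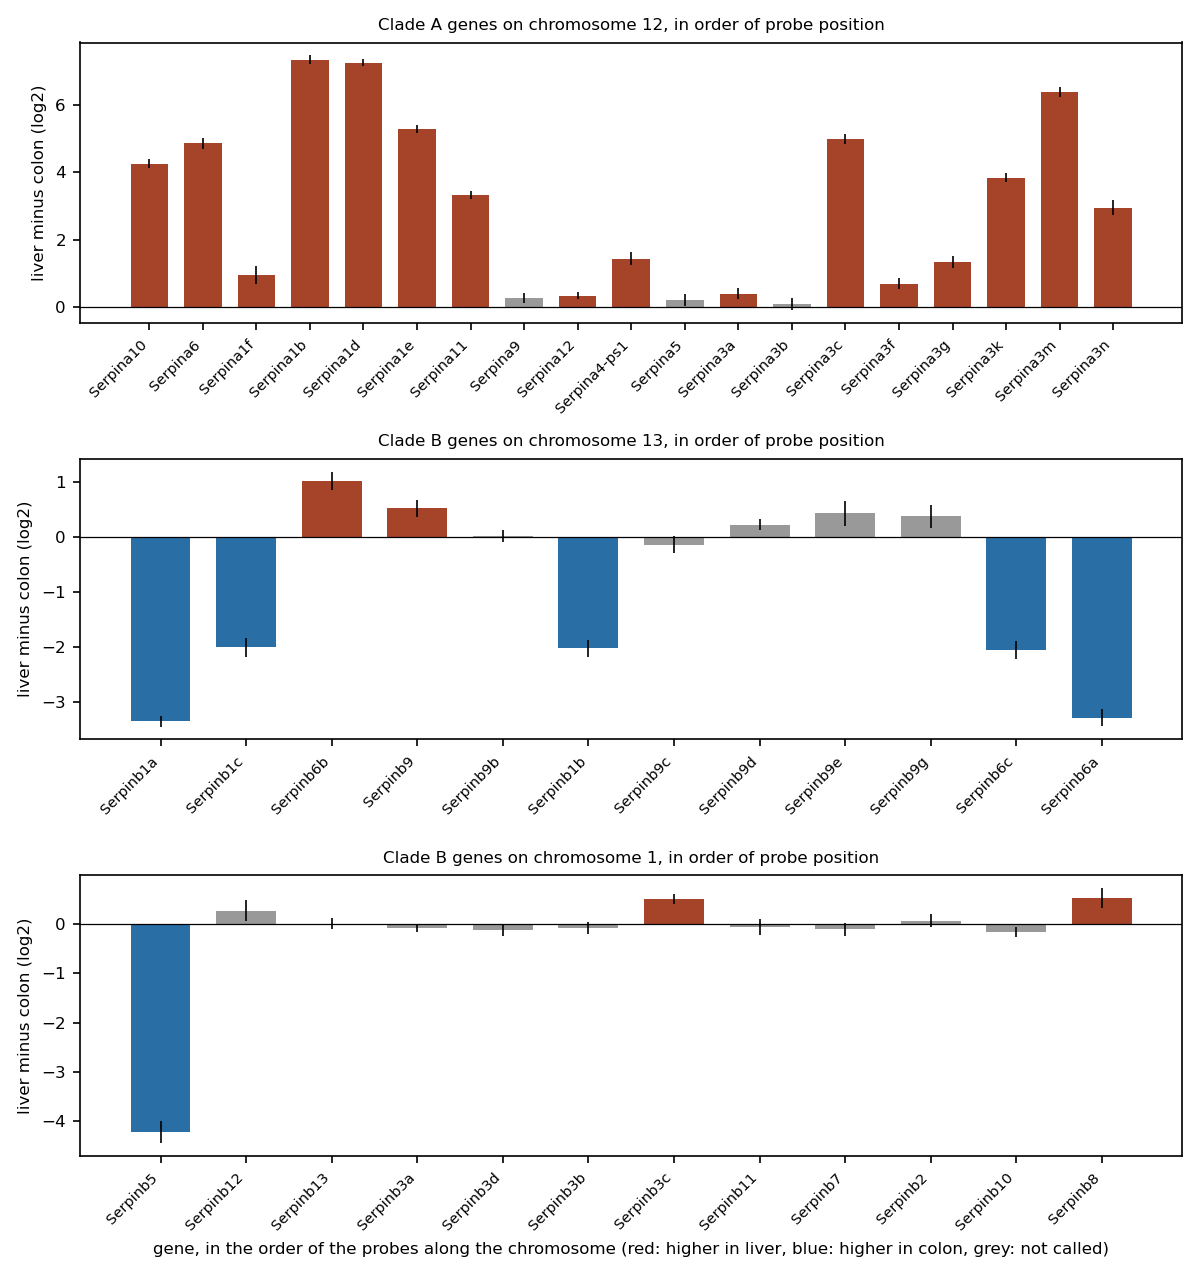
Liver minus colon log2 difference (bars, ± SE, n = 12 mice) of clade A genes on chromosome 12 and clade B genes on chromosomes 13 and 1, in the order of their probes along each chromosome, with red for higher in liver, blue for higher in colon and grey for not called. The y axes differ in scale. The 5 weakest clade A genes lay between Serpina11 and Serpina3c, and on chromosome 1 Serpinb5, at −4.22, was the one gene higher in colon, with Serpinb3c and Serpinb8 higher in liver by 0.51 and 0.53.

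Outside clades A and B, 2 genes were higher in colon. Serpinh1, the collagen chaperone, ran from −1.55 to 0.23 in colon (median −0.73) and from −4.03 to −1.69 in liver (median −3.46), a difference of −2.52 ± 0.20 (5.74-fold). The collagen genes Col1a1, Col3a1, Col1a2 and Col4a1 differed the same way, by −2.50 ± 0.28, −2.53 ± 0.23, −2.01 ± 0.24 and −1.22 ± 0.18, whereas P4hb, a subunit of the collagen hydroxylase, was higher in liver by 0.83 ± 0.17. In the marker lists 6 of 8 fibroblast and matrix markers were higher in colon, but Col1a1, Col1a2 and Col3a1 are themselves among those 6. Serpini1, neuroserpin, an inhibitor of tissue plasminogen activator in neurons, was at 1.05 to 1.93 in colon (median 1.45) and dim in every liver, with colon at least 2.23-fold higher. Of 7 enteric neuron and glia markers, 5 were higher in colon (median −2.36) and 5 were dim in every liver. Whether these cells account for the difference was not tested. Serpine2, protease nexin 1, gave 0.01 ± 0.14 and was not called.

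The proteases and partners that serpins act on were counted in the same way. Of 77 such genes on the array, 45 were higher in liver, 18 in colon and 14 were not called (median 0.54), against 19.4% and 19.0% of all probes. The lists differed among themselves, and no test compared them with the Serpin genes. Among 13 proteases of clotting and fibrinolysis 12 were higher in liver, F2 by 7.09 ± 0.09 and F12 by 6.59 ± 0.13, and Plat alone was higher in colon, at −0.91 ± 0.15. One of the 12, Plau (0.65 ± 0.23), was dim in every liver and cleared background in only 2 colons. Of 7 complement proteases 6 were higher in liver, and Cfd was higher in colon. Of 6 kallikreins and membrane serine proteases 5 were higher in colon, Tmprss4 at −4.83 ± 0.22 and Klk1 at −4.43 ± 0.16, and none in liver. Of 16 leukocyte granule and digestive proteases 7 were higher in liver, 1 in colon and 8 in neither, but most of that list was dim, with 1 gene well above background in all 12 livers and 5 in none. Cysteine proteases divided 3 and 3 of 7, receptors and cofactors 6 and 1 of 8, clients and hormone partners 6 and 6 of 12, and regulators 5 and 0 of 8, with Cebpb at 1.87 ± 0.18 and Hnf4a at 0.44 ± 0.07. Among 11 acute phase genes 8 were higher in liver (median 3.55), while Saa1, Saa2 and Saa3 were higher in colon.

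The diet contrast asked whether sufficient selenium and folate after weaning changed Serpin expression. Differences here are HF-low-suf minus HF-low-low, with the direction of each ratio taken from the dyes that the labels and methods state, under which the hepatocyte markers were higher in liver. The study's gene tables also count a rise with supplementation as positive, but for nearly all of the probes they list the signs obtained here were the opposite. The reason for this was not tested, and every signed diet value below would reverse if the diet labels of the arrays were turned. At an unadjusted P below 0.01 with a fold change above 1.5, the threshold of the study's methods, 0 of 54 genes were called in liver and 0 in colon, against 0.117% and 0.168% of all probes. At an adjusted P below 0.05 limma called no member and no probe in either tissue. At an unadjusted P below 0.05 it called 2 members in liver (877 of all probes) and 0 in colon (1228 of all probes). The 23 genes that cleared background in 6 or more livers ran from −0.17 to 0.38 (median 0.02), and the 25 such genes in colon from −0.29 to 0.18 (median 0.02), so every one was within 1.5-fold. The median SE was 0.23 in liver and 0.17 in colon.

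The 3 smallest P in liver among genes well above background on 6 or more arrays belonged to colon-enriched serpins. Serpinb1a ran from −3.72 through −3.42 to −3.03 in HF-low-low livers and from −3.32 through −3.09 to −2.56 in HF-low-suf livers, and the groups overlapped. The difference was 0.35 ± 0.16 (SE, limma) and did not pass the adjusted threshold, and the exact permutation P, two-sided as for all such tests here, was 0.0606. Serpinb1c differed by 0.38 ± 0.29 (exact permutation P = 0.288, 6 against 5 livers) and Serpinh1 by 0.35 ± 0.33 (exact permutation P = 0.411). Over the other settings run, the Serpinb1a difference ran from 0.17 within scan day 2 to 0.54 within scan day 1, and the Serpinb1c difference from 0.13 within scan day 2 to 0.65 with Feature Extraction's processed signals. Leaving out 1 liver moved Serpinb1c to as little as 0.23 (without HF-low-low replicate 4) and as much as 0.58 (without HF-low-low replicate 6). It moved Serpinh1 to 0.06 without HF-low-suf replicate 1 and to 0.55 without HF-low-low replicate 2, and without HF-low-suf replicates 1 and 2 together Serpinh1 was at −0.02.

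Among genes well above background in 6 or more colons, the 3 with the smallest P also missed the threshold. Serpinb1b ran from −0.25 through 0.19 to 0.65 in HF-low-low and from 0.18 through 0.43 to 0.56 in HF-low-suf, a difference of 0.18 ± 0.16 (exact permutation P = 0.255). Serpinf1 ran from −3.80 through −2.81 to −2.20 and from −3.70 through −3.28 to −2.85, a difference of −0.29 ± 0.27 (exact permutation P = 0.342). Serpinb5 differed by 0.11 ± 0.14 (exact permutation P = 0.359). Without HF-low-low replicate 3 the Serpinb1b difference was 0.086, and without HF-low-low replicate 4 it was 0.27. Without HF-low-low replicate 4 the Serpinf1 difference was −0.14, and without HF-low-low replicate 5 it was −0.46. The Serpinb5 difference was 0.057 without HF-low-suf replicate 2, 0.060 without HF-low-low replicate 1 and 0.17 without HF-low-suf replicate 4. Over the other settings Serpinb1b ran from −0.10 to 0.44, Serpinf1 from −0.50 within scan day 2 to −0.083 within scan day 1, and Serpinb5 from −0.035 to 0.27. The groups overlapped for all 3, and the smallest P that 924 assignments of 12 mice allow is 0.00216.

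Serpinb9e was the other liver gene with an unadjusted P below 0.05. It gave 0.90 ± 0.40, but its probe cleared background in only 1 of 12 livers and in no colon, and it did not pass the adjusted threshold. With the replicate number (slide) as a block it gave 0.90 ± 0.21 and passed the threshold of the study's methods, with 0.318% of all probes called and its adjusted P (limma) above 0.05. The difference between the diet effects of the tissues passed an adjusted P below 0.05 (limma) for none of the 54 genes and for no probe. At an unadjusted P below 0.05 it passed for 2 members, Serpinb9e and Serpinb3a, and for 2646 probes.

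**Figure D4:**
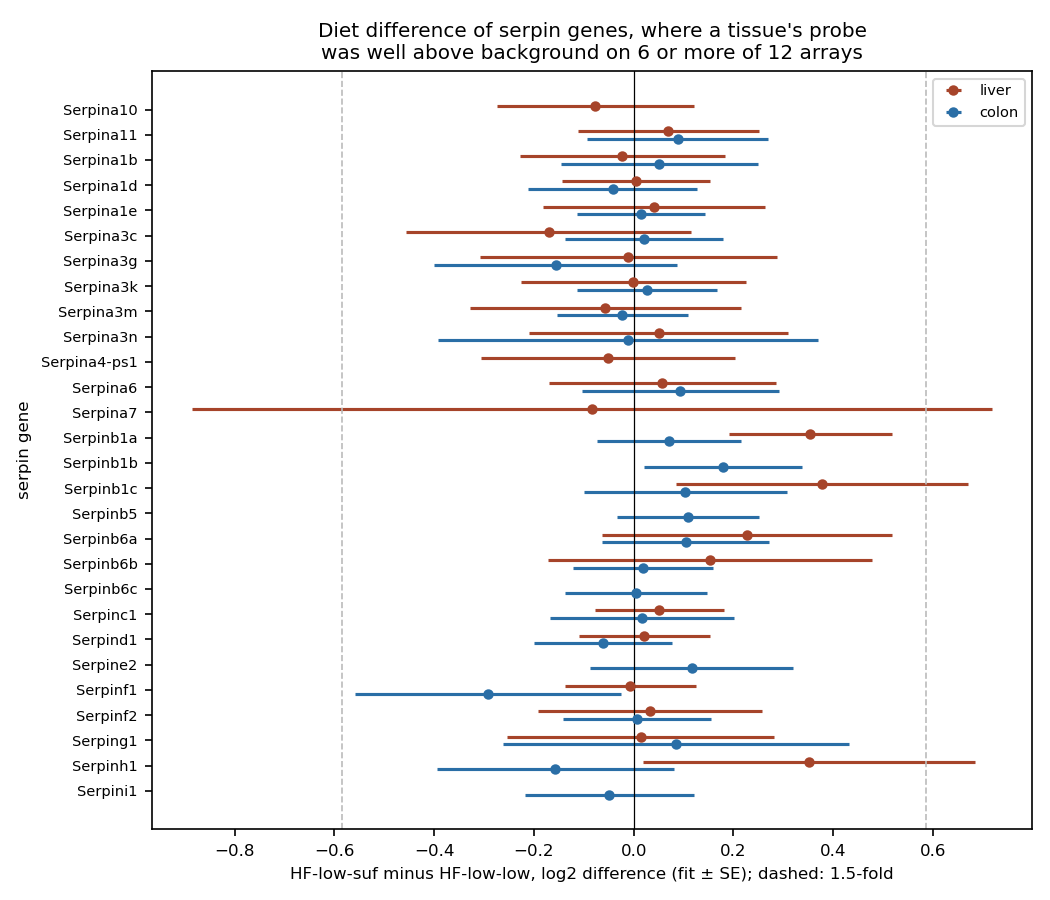
HF-low-suf minus HF-low-low log2 difference (x axis, fitted value ± SE, 6 mice a group) of each Serpin gene in the tissues where its probe cleared background on 6 or more of 12 arrays, with red for liver and blue for colon. Every point lay inside the dashed lines at 1.5-fold, and only the error bar of Serpina7 in liver crossed both lines.

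Some members varied widely between mice of one diet, and the genes in the remaining paragraphs were picked for that spread after their values were seen. Serpina7 had a within-diet SD of 1.64 in liver. That of 99.8% of the 15209 probes well above background on 6 or more livers was no larger. Its HF-low-low livers were at 1.19, 3.59, 4.62, 2.63, 3.92 and 0.43 in replicate order, and its HF-low-suf livers at 3.30, 4.37, 3.22, 0.38, 0.83 and 3.78. Low and high livers occurred on both diets, and the diet difference was −0.08 ± 0.80. The hepatocyte markers ran only from −0.49 to 0.29 around their mean over the same livers.

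Among genes well above background on all 12 liver arrays, the largest within-diet SDs belonged to Serpinh1 (0.66), Serpina3g (0.58), Serpina3c (0.56) and Serpina3m (0.52), against a median of 0.29 for detected probes. Serpina3c and Serpina3m moved together over the 12 livers, with Pearson's r of 0.91 (permutation P = 5.00e-05, adjusted 0.00123) and Spearman's rho of 0.90 (permutation P = 0.000160, adjusted 0.00235). The r was 0.84 without the 2 livers farthest from the median and 0.97 and 0.69 within the 2 scan days. Serpina3g ran opposite to Serpina3c, with r of −0.80 (permutation P = 0.00269, adjusted 0.0108) and rho of −0.76 (permutation P = 0.00574, adjusted 0.0184), with r of −0.78 without the 2 farthest livers and −0.81 and −0.70 within scan days. P-values were adjusted over 44 relations in both tissues, each from 100000 permutations. Of the 44, 25 had an adjusted P below 0.05 for both r and rho, so those described are a selection.

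The same liver genes moved with marker lists. Serpina3m followed the mean of 8 hepatocyte markers with r of 0.89 (permutation P = 1.00e-04, adjusted 0.00123) and rho of 0.97 (permutation P = 1e-05, the smallest that the permutations can give, adjusted 0.000440). Its r was 0.81 without the 2 farthest livers and 0.97 and 0.57 within scan days. Serpina3g followed the mean of 4 leukocyte markers, with r of 0.87 (permutation P = 0.000140, adjusted 0.00123) and rho of 0.86 (permutation P = 0.000570, adjusted 0.00502), r of 0.88 without the 2 farthest and 0.86 and 0.87 within scan days. That list ran from −0.83 to 0.94 over the livers. Serpina3g was tied to other lists too, with r of 0.75 for 2 endothelium markers and −0.65 for the hepatocyte markers. Without the 2 farthest livers these were 0.53 and −0.45. Serpina3c had r of 0.89 with the hepatocyte markers and −0.69 with the leukocyte markers. These 4 relations had adjusted permutation P below 0.05 for both r and rho. Serpinh1 followed the fibroblast and matrix list with r of 0.78 (permutation P = 0.00649, adjusted 0.0143) and rho of 0.76 (permutation P = 0.00626, adjusted 0.0184), but r was 0.49 without the 2 farthest livers, so the relation rested in part on those. What part the makeup of each liver piece had in these values was not tested.

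In colon the widest within-diet SDs among genes well above background on all 12 arrays were those of Serpina3n (0.80), Serping1 (0.72), Serpinf1 (0.54) and Serpina3g (0.48), against a median of 0.28. Serpina3n was at −0.59, −0.87, −1.92, −1.47, −2.06 and −0.24 in HF-low-low colons and at 0.10, −1.89, −0.68, −0.86, −1.84 and −2.05 in HF-low-suf colons. The fibroblast and matrix markers fell into separate sets over the same colons, 5 at or below −0.46 and 7 at or above 0.14, and the leukocyte markers divided the same 5 (at or below −0.34) from the same 7 (at or above 0.32). The 5 low colons came from both diets, HF-low-low replicates 3 and 5 and HF-low-suf replicates 2, 5 and 6. They were also the 5 lowest colons for Serpina3n, for Serping1 and for Serpinf1. Because the colons were divided in this way, no correlation over all 12 is given for these lists. Within the 7 other colons, r of the 4 genes with the 2 lists ran from −0.66 to 0.68 and rho from −0.54 to 0.46, and none of these 8 relations passed (smallest exact permutation P = 0.0990, adjusted 0.343). The mean of 4 endothelium markers was also related to all 4 genes over the 12 colons. Its r ran from 0.76 for Serping1 to 0.86 for Serpina3g (adjusted permutation P from 0.0125 to 0.00258). The rho ran from 0.74 for Serpinf1 to 0.86 for Serpina3g (adjusted permutation P from 0.0214 to 0.00502). The widest gap in that list set 4 colons apart from 8, and within the 8 r ran from 0.36 to 0.80, without a test. Whether cell makeup accounts for the spread was not tested.

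**Figure D5:**
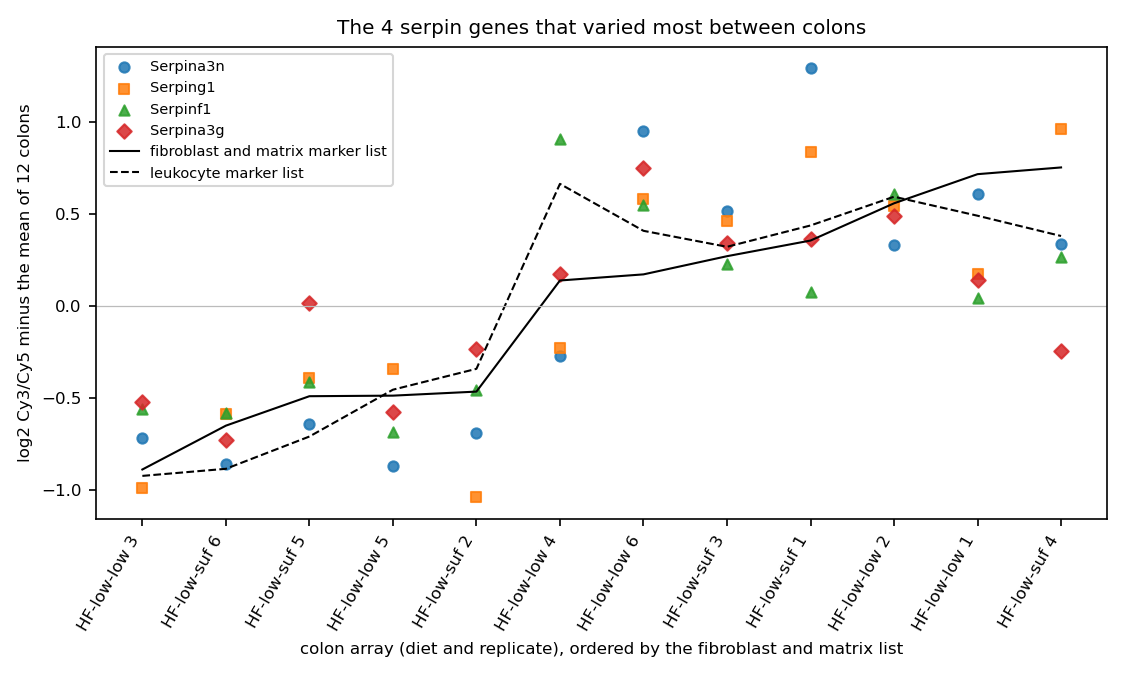
Log2 Cy3/Cy5 minus the mean of 12 colons (y axis) for Serpina3n, Serping1, Serpinf1 and Serpina3g on each colon array (x axis, ordered by the fibroblast and matrix marker list), with lines for that list and the leukocyte list. The 5 arrays on the left were low on both lists and were the lowest 5 for Serpina3n, Serping1 and Serpinf1, and they include both diets.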

How the data were processed

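Whole colon and liver RNA from 12 mice was hybridised to 24 two-colour Agilent arrays. The deposited intensity values were those the authors obtained with Agilent Feature Extraction 9.5.3.1, as mean and background signals per spot, not yet normalised. Per the methods, the authors then used a global loess and limma. Here 45018 spots were read and 1639 control spots left out. Background was corrected with normexp (offset 50), ratios were normalised within arrays by loess, spots flagged as outliers were dropped and spots of one probe averaged (R 4.3.3, limma 3.58.1, statmod 1.5.0), which left 41174 probes. Signal over background and the number of arrays limit the precision, since arrays give no read depth.

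Diet was tested with limma within each tissue on 12 arrays. Liver minus colon and the difference of the diet effects used all 24 arrays with mouse as a random block (correlation 0.16), since each mouse gave both tissues. P-values were adjusted by Benjamini-Hochberg over all probes. Replicate numbers of different diets marked only a common slide: correlations of their deviations ran from −0.59 to 0.61 in liver and from −0.33 to 0.42 in colon. "Well above background" is the scanner software's own flag in Cy3.

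Values were given for the 8 largest differences in each direction between tissues, the 3 smallest P in each diet contrast among probes that cleared background on 6 or more of the 12 arrays, and genes whose probes differed in direction or by over 2 log2 units. The values of 1 member, which is counted, are not reported here. The members, gene lists and rules were chosen with earlier results of these data known. Alternatives covered background, normalisation, channel, probe choice, filters, blocks, scan day and leaving out arrays. The fits were tested on simulated data with known changes.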

Additional observations from a re-analysis of the deposited data

Results flagged for a closer look

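Among 61 groups of 6 arrays of the genes given in full, 6 held 1 array whose gap to the nearest other array was large for the range of its group. Chance alone marks about 1 group in 20. The colon HF-low-suf replicate 2 was lowest for Serpina1d at −6.16, and the colon HF-low-low replicate 4 was lowest of its group for Serpina3m at −5.26. The colon HF-low-suf replicate 5, one of the arrays with a bright Cy5 channel, was highest for Serpinc1 at −5.45. In liver, HF-low-suf replicate 2, the liver with the most skeletal muscle transcript, was highest for Serpinb1a at −2.56, and HF-low-suf replicate 1, with the most adipose transcript, was highest for Serpinh1 at −1.69. The liver HF-low-low replicate 3 was lowest for Serpinf2 at 0.24. It was also the lowest liver on the hepatocyte marker list (−0.49), and on the fibroblast and matrix, smooth muscle, skeletal muscle and colon epithelium lists. All 6 values stayed on their own tissue's side of the gap between liver and colon, and what set them apart was not tested.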

How the results depend on the processing

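Over all settings run, counts of members called stayed within 1.5 times the reported count except in 6 cases. The 4 clade B genes higher in liver became 2 in HF-low-low mice only, 2 with dim probes filtered, 2 within scan day 2, 1 with a fold change above 2 required, and 1 with the second-brightest probe. With the replicate number (slide) as a block, 1 member, Serpinb9e, was called by diet in liver (0.90 ± 0.21, with 0.318% of all probes called and an adjusted P above 0.05) and 0 in colon. Leaving out each mouse in turn gave 26 to 29 genes higher in liver, 8 in colon throughout, 16 to 17 of clade A in liver and, in clade B, 6 in colon and 3 to 5 in liver. Diet calls stayed at 0 in both tissues and in their difference. Over the 21 other settings the counts ranged more widely, from 19 to 28 genes higher in liver and 6 to 10 in colon. Clade A in liver went from 13 to 17 and clade B in colon from 4 to 8.

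Some single values turned sign. The second-brightest probe gave −0.12 for Serpina5, 0.015 for Serpinb10, 0.042 for Serpinb1b, against the reported −2.03, and 0.083 for Serpinb3a, whose main probe gave −0.084, in liver minus colon, and −0.10 for diet in colon for Serpinb1b. Serpinb3a gave 0.10 in HF-low-low mice only. Within scan day 2, diet in colon gave −0.079 for Serpinb1b and −0.035 for Serpinb5. Diet in liver for Serpinh1 was −0.018 without HF-low-suf replicates 1 and 2, and −0.15 without replicates 1, 2 and 4, a setting chosen after seeing the data. The cause was not tested. Feature Extraction's own processed signals widened the differences of dim genes, to 6.43 for Serpina10, −6.08 for Serpinb5, −3.68 for Serpini1, −3.37 for Serpinb6c, −2.99 for Serpinb1b and −2.98 for Serpinb1c, and median centring in place of loess gave 3.51 (liver minus colon log2, Serpina10) and −1.70 (liver minus colon log2, Serpini1).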
